A study of Sparus aurata with 53 samples.

Results

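The last 6 h of darkness in larvae of the gilthead sea bream (Sparus aurata) was read here as the change between zeitgeber times 18 h and 24 h. The comparison held 12 of the 53 arrays of the series, 6 whole single larvae at 18 h and 6 at 24 h, chosen by the zeitgeber time in the sample labels, and all 13940 probes that are not controls. All larvae were 30 days old and untreated, and they lived under 12 h of light and 12 h of darkness with food always on offer. Light came on at 0 h and went off at 12 h, so that the 18 h larvae were 6 h into darkness. The 24 h larvae were taken at the hour when light was due, 1 day after the 0 h larvae. Whether the light was already on when they were taken is not stated. A response to light at 24 h was not tested and cannot be told apart from a change in darkness. The wider study sampled a full day every 3 h to follow the daily course of the transcriptome, with 1 larva per array and 6 arrays per time (5 at 12 h). The labels and the study's methods differ in the number of tanks, and neither ties a larva to its tank, so a tank effect was not tested. RNA came from the whole body, in which fewer cells of a type and less RNA per cell cannot be told apart.

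As background, the vertebrate clock is a feedback loop. Clock and bmal1 form a dimer that switches on period (per) and cryptochrome (cry) genes, and the period and cryptochrome proteins return to the nucleus and silence that dimer. ROR nuclear receptors drive bmal1, and in fish several period and cryptochrome genes also respond to light itself. In some fish larvae, DNA synthesis and mitosis are held to certain hours of the day. Mitosis runs on cyclin B and the kinase cdk1, and the anaphase-promoting complex with cdc20 ends it by tagging cyclins for the proteasome.

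Signals are given as normalized log2 signal, for which the array's own 75th percentile was taken off the log2 of the background-subtracted intensity, so that 0 is the level of that percentile and 1 unit is a doubling. That percentile ranged from 171 to 416 intensity units at 18 h and from 199 to 434 at 24 h (difference -26.7, two-sided exact permutation p = 0.610, 924 splits). The share of probes well above background was 79.1% to 94.1% at 18 h and 79.9% to 90.8% at 24 h (difference of the means -3.81 percentage points, two-sided exact permutation p = 0.214). Of the 18 h larvae, number 5 held 317 probes more than 2 log2 units above the median of its group and number 6 held 252 probes as far below, against 10 to 29 above and 37 to 114 below in the other 4, and the counts of rises and falls, and the list counts that moved most, are given below without both. Among the 24 h larvae, number 5 held 129 probes as far above its group. The log2 difference between 24 h and 18 h had a median of -0.10 over all probes and lay below 0 for 63.9% of them, and the values of gene groups are to be read against that shift.

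Between 18 h and 24 h, 579 probes changed at a limma adjusted p under 0.05, which is 4.15% of those tested. Of these, 252 were higher at 24 h (1.81%) and 327 were lower (2.35%). The log2 difference had a median of 0.97 among the rises and -0.75 among the falls, and 116 rises and 83 falls reached 1 log2 unit. The larvae of both times did not overlap for 258 of the 579 probes, 141 that rose and 117 that fell, while 2.17% of all probes showed no overlap (1.14% in the direction of a rise and 1.03% in that of a fall). In 521 of the 579, the signal was well above background in all 12 larvae. The balance of rises and falls moved with the scaling: rises made up 43.5% of the calls as reported, 52.5% after quantile normalization and 62.2% after median centring. Without 18 h larvae 5 and 6, 200 probes were higher and 203 lower, and 332 of the 579 calls remained. Leaving out larva 5 alone gave 208 falls, and leaving out 24 h larva 6 gave 210.

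**Figure D1:**
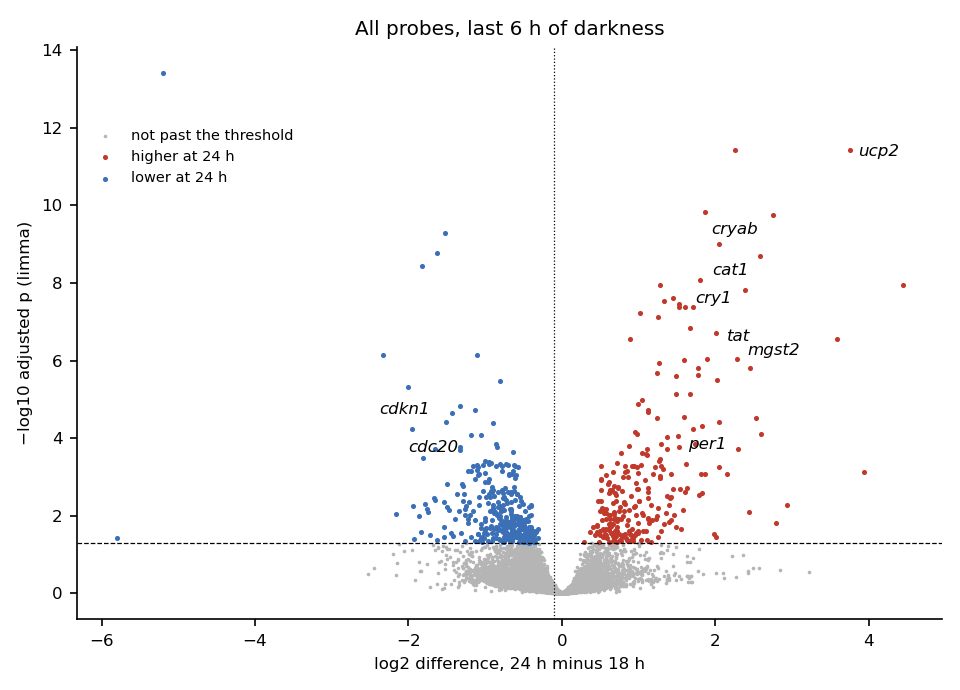
Log2 difference between 24 h and 18 h (horizontal axis) against −log10 of the limma adjusted p (vertical axis) for 13940 probes, 6 larvae per time. Red marks the 252 probes that rose and blue the 327 that fell, the dashed line is the threshold of 0.05 and the dotted line the median of all probes at -0.10.

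Slides could be compared directly, because 5 of the 7 slides carried a larva of each time. For 502 of the 579 probes (86.7%), all 5 within-slide differences had the direction of the mean, against 17.4% of all probes. Within the 3 scan batches the direction held in every batch for 569 probes (98.3%, against 43.3% of all probes). With slide as a term in the model 1334 probes passed, 527 higher and 807 lower, and all 579 were among them. These shares describe the same larvae that chose the 579 probes and are no separate test.

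**Figure D2:**
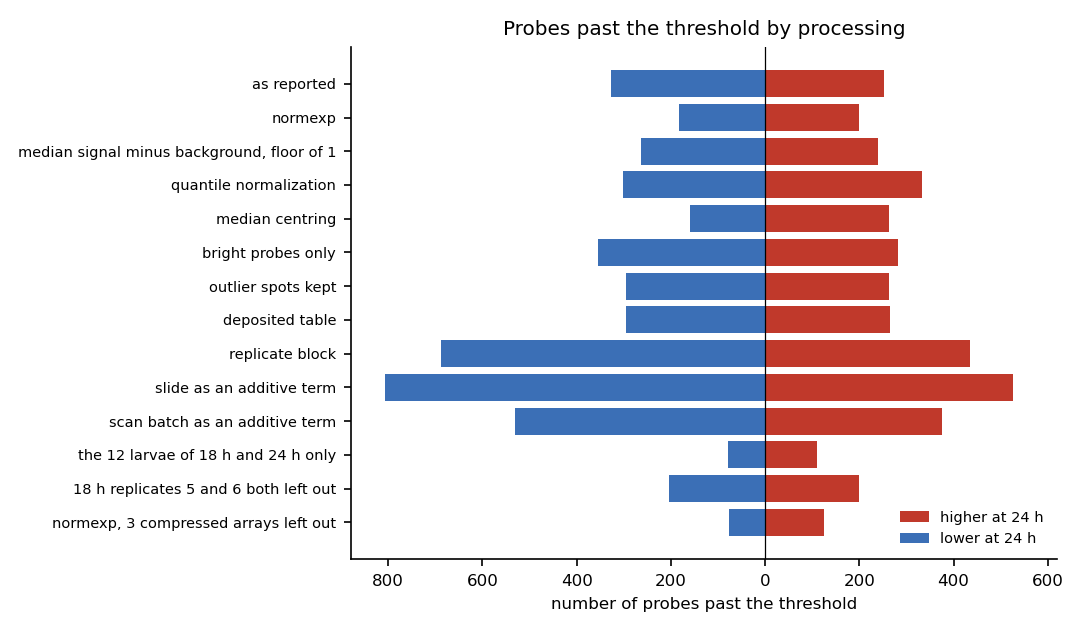
Number of probes past the threshold between 18 h and 24 h under each way of processing, rises to the right in red and falls to the left in blue. The bars run from 579 probes as reported to 1334 with slide as a term and 189 when only the 12 larvae were fitted.

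Gene names came from the tables of the study and could be given to 277 probes, of which 92 changed (33.2%), 49 higher and 43 lower. The study chose most of these genes for a daily course in the same larvae and grouped them by that course. This share is therefore no independent evidence. The same holds for the counts, directions and medians of the lists that follow, also where they are set beside all probes. The shares to hold beside each list count are 1.81% higher and 2.35% lower over all probes. Larvae of both times did not overlap for 49 of the 92, against 2.17% of all probes. All 5 within-slide differences ran in the direction of the mean for 84, against 17.4% of all probes. The same larvae chose the 92, which favours both counts. In the core clock list of 7 genes, 4 were higher at 24 h and none was lower, with a median log2 difference of 1.05. All 4 were repressors of the loop, 2 period and 2 cryptochrome genes.

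The cryptochrome cry1 had the smallest adjusted p among the clock genes. Its normalized log2 signal ran from -0.85 to -0.19 in the 18 h larvae (median -0.67) and from 0.78 to 1.44 in the 24 h larvae (median 0.95), and the groups lay well apart. That is a rise of 3.04-fold (log2 difference 1.61 ± 0.19 SE, limma adjusted p = 4.24e-08). Cry2, a second cryptochrome, lay between -3.07 and -2.21 at 18 h, with a median of -2.86, and between -2.16 and -1.40 at 24 h, with a median of -1.61, and its groups came close without touching. It rose by 2.07-fold (log2 difference 1.05 ± 0.19 SE, limma adjusted p = 2.40e-04). The period gene per3 had a lowest, median and highest value of -5.34, -4.81 and -4.28 at 18 h and of -3.51, -3.12 and -2.65 at 24 h, a rise of 3.27-fold (log2 difference 1.71 ± 0.28 SE, limma adjusted p = 6.01e-05). Its sister per1 lay between -4.85 and -3.62 at 18 h, with a median of -4.10, and between -2.96 and -1.95 at 24 h, with a median of -2.76. Per1 was 2.85-fold higher (log2 difference 1.51 ± 0.26 SE, limma adjusted p = 8.92e-05), and no 18 h larva of either gene reached the lowest 24 h larva. Both period genes were dim: at 18 h they stood well above background in 4 of 6 larvae, so these folds rest partly on values close to background.

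The other members of the loop did not pass the test. The activators bmal1 and clock had log2 differences of -0.52 (adjusted p = 0.586 in limma) and -0.48 (adjusted p = 0.61 in limma), with overlapping larvae and 95% intervals from -1.33 to 0.29 and from -1.25 to 0.30. Each was well above background in only 3 of the 6 larvae at 24 h. Per2, a period gene that light induces in zebrafish larvae, was above background in 1 larva of each group. Its difference was 0.79 (adjusted p = 0.328 in limma), and its signal was too close to background to compare the times. Cry1 passed in all 25 other settings. Per1, per3 and cry2 passed in 23 of them, and under the normexp background correction they turned to -0.21, -0.26 and -0.10 without passing. That correction compressed the signal range of 2 of the 6 arrays at 18 h, and with the compressed arrays left out the values were 0.37, 0.36 and 0.37, again not past the threshold.

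**Figure D3:**
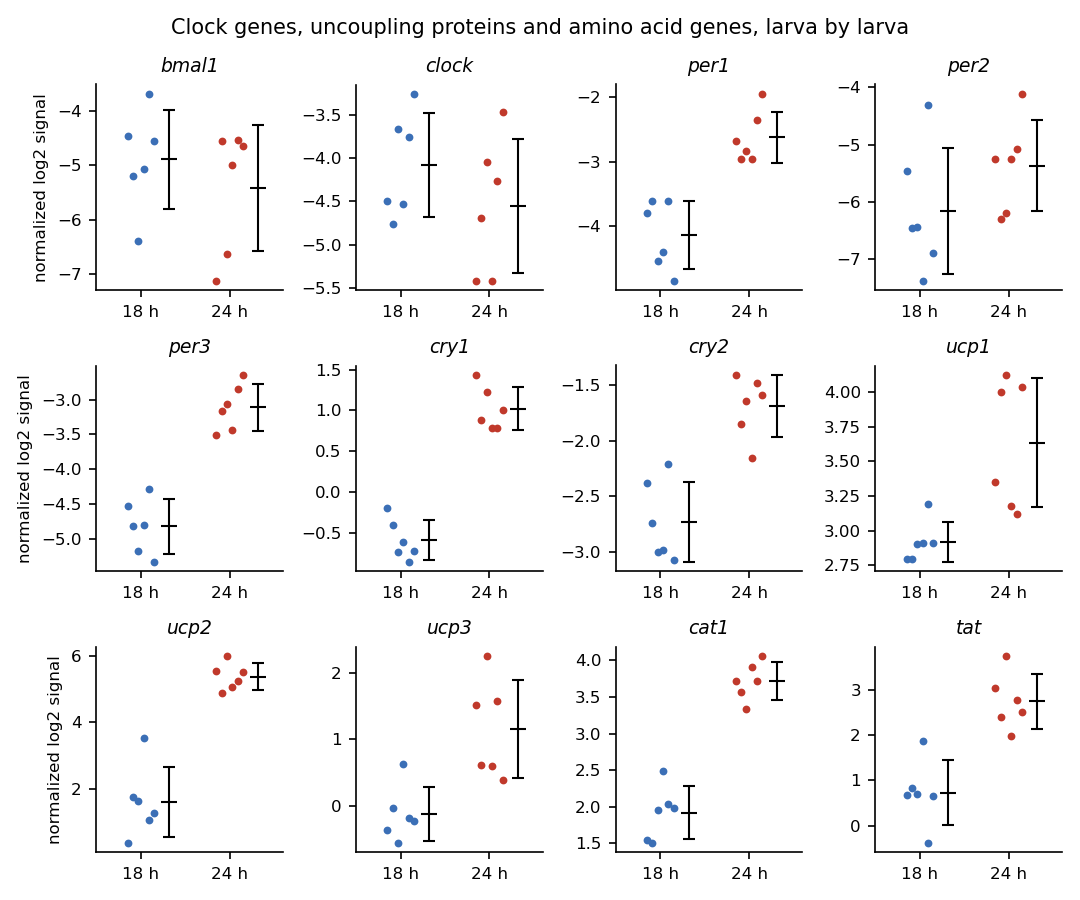
Normalized log2 signal of 12 genes in the 18 h larvae (blue) and the 24 h larvae (red), 1 point per larva, with the mean and SD in black beside each group. For per1, per3, cry1, cry2, ucp2, cat1 and tat, every red point lies above every blue point, whereas bmal1, clock and per2 overlap.

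Among 5 accessory clock and light-sensing genes, 2 rose and none fell. With slide as a term 5 rose, with scan batch or replicate number as a term 4, and with only the 12 larvae fitted 1. ROR-gamma, a nuclear receptor of the family that drives bmal1, ran from -3.21 to -2.44 in the 18 h larvae (median -2.90) and from -1.52 to -0.85 in the 24 h larvae (median -1.21). Its rise was 3.03-fold (log2 difference 1.60 ± 0.22 SE, limma adjusted p = 9.93e-07), with no overlap. Cryptochrome DASH, a relative of the DNA-repairing photolyases, had a difference of 0.70 (limma adjusted p = 0.0675), and it passed the test with slide as a term (0.80, adjusted p = 0.00259). Nocturnin, a clock-controlled phosphatase first known as a deadenylase, had a difference of 0.52 (limma adjusted p = 0.284), and 0.59 with slide as a term (adjusted p = 0.0201).

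The subunits of the photoreceptor phosphodiesterase, the enzyme that lowers cGMP when light strikes rods and cones, held 1 larva far from the rest. The cone gamma subunit ran from -4.91 to 3.47 in the 18 h larvae (median 3.01) and from 3.22 to 5.39 in the 24 h larvae (median 4.69), with 18 h larva 6 far below the other 5, which began at 2.33. Its rise of 2.93 log2 units (limma adjusted p = 0.00528) became 1.61 without that larva (adjusted p = 0.00129). The rod-like gamma subunit was lowest in the same larva, at -1.59 against 3.67 to 4.65 in the other 5, and had a difference of 1.49 (limma adjusted p = 0.0662), which was 0.54 without that larva (adjusted p = 0.130). It passed with slide (adjusted p = 0.0340), scan batch (adjusted p = 0.0332) or the replicate number (adjusted p = 0.0362) as a term, and in 9 of 25 other settings in all. Both retinal genes were also lowest in 24 h larva 5 among the larvae of their time.

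Uncoupling proteins sit in the inner mitochondrial membrane, where ucp1 lets protons back without making ATP in mammalian brown fat and where ucp2 and ucp3 have debated roles in oxidative balance and fuel export. Of the 3 in the list, 2 rose. The study names another ucp2 entry, with smaller fold changes, which is not in this list. Ucp2 lay between 0.38 and 3.53 at 18 h, with a median of 1.46, and between 4.89 and 5.99 at 24 h, with a median of 5.37. Only 1 of the 18 h larvae, number 4, stood above 1.77, and the lowest 24 h larva was still above it. The gain was 13.5-fold (log2 difference 3.76 ± 0.31 SE, limma adjusted p = 3.73e-12), the largest rise among all named clones. Ucp1 had a lowest, median and highest value of 2.79, 2.91 and 3.19 at 18 h and of 3.12, 3.67 and 4.12 at 24 h, so that the 24 h larvae spread over a wider range and the groups overlapped. Its rise of 1.64-fold was small (log2 difference 0.72 ± 0.19 SE, limma adjusted p = 0.0194) and no longer passed when 24 h larva 2, 3 or 6 was left out (adjusted p from 0.0558 to 0.0785). It also failed with only the 12 larvae fitted (limma adjusted p = 0.125) and under normexp without the compressed arrays (limma adjusted p = 0.107). Ucp3 ran from -0.55 to 0.64 in the 18 h larvae (median -0.20) and from 0.39 to 2.25 in the 24 h larvae (median 1.07), with a difference of 1.28 ± 0.44 SE that did not pass (limma adjusted p = 0.0944). With slide as a term it did (1.45, adjusted p = 0.0123).

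Metabolism and transport genes leaned towards higher levels at 24 h: 13 of 33 rose, 1 fell, and the median log2 difference was 0.63. Tyrosine aminotransferase (tat), which opens tyrosine breakdown in the liver, ran from -0.38 to 1.88 in the 18 h larvae (median 0.69) and from 1.97 to 3.75 in the 24 h larvae (median 2.64), a rise of 4.03-fold (log2 difference 2.01 ± 0.25 SE, limma adjusted p = 1.92e-07) with little space between the groups. Cat1, a carrier of cationic amino acids, had a lowest, median and highest value of 1.50, 1.97 and 2.49 at 18 h and of 3.33, 3.72 and 4.06 at 24 h. The carrier rose by 3.47-fold (log2 difference 1.80 ± 0.20 SE, limma adjusted p = 8.18e-09), and its within-slide differences ran from 1.37 to 2.21 log2 units. L-threonine 3-dehydrogenase (tdh), which breaks down threonine in mitochondria, lay between -3.66 and -2.55 at 18 h, with a median of -3.20, and between -1.89 and -0.76 at 24 h, with a median of -1.55, a rise of 3.41-fold (log2 difference 1.77 ± 0.25 SE, limma adjusted p = 2.37e-06). Snat3, a glutamine carrier, rose less (log2 difference 0.82 ± 0.19 SE, limma adjusted p = 0.00477), again without overlap.

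Uridine phosphorylase 2 (upp2), a pyrimidine salvage enzyme, had a lowest, median and highest value of -0.49, 0.52 and 1.27 at 18 h and of 1.70, 1.96 and 2.73 at 24 h, and it rose by 3.06-fold (log2 difference 1.61 ± 0.35 SE, limma adjusted p = 0.00249). The calcium-binding mitochondrial carrier scamc2-a, which moves ATP and phosphate, rose by 1.29 log2 units (adjusted p = 5.25e-04 in limma) from a level that was above background in 4 of 6 larvae at 18 h. S-adenosylmethionine decarboxylase (amd1) of polyamine synthesis, inositol-3-phosphate synthase (isyna1-a) and prostaglandin E synthase (ptges) rose by 1.12, 1.00 and 0.96 log2 units, with adjusted p from 0.00247 to 0.00557 in limma. Eif4ebp3-like, of a family that restrains cap-dependent translation, rose without overlap by 0.96 (limma adjusted p = 7.13e-05). Smaller rises were found for monocarboxylate transporter 12-B at 0.89, cytochrome P450 2B4 at 0.85 and the ammonium transporter Rh type A (rhag) at 0.63 log2 units. Pfkfb2, which sets the level of a glycolytic activator, was the single fall at -0.56 log2 units (limma adjusted p = 0.0477), and it failed the test in 18 of 25 other settings. Among the 19 that did not pass, the ileal bile acid cotransporter asbt had a difference of 0.98 and liver phosphofructokinase pfkl of -0.15.

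In the antioxidant list of 7 genes, 2 rose and 1 fell. Microsomal glutathione S-transferase 2 (mgst2), a membrane enzyme that couples glutathione to lipids, lay between -2.70 and -0.78 at 18 h, with a median of -2.19, and between -0.62 and 0.70 at 24 h, with a median of 0.34. The gain was 4.88-fold (log2 difference 2.29 ± 0.31 SE, limma adjusted p = 9.01e-07), without overlap. Nrf2, the transcription factor that switches on antioxidant genes, rose by 0.61 log2 units with overlapping larvae (limma adjusted p = 0.0232). Catalase, which removes hydrogen peroxide, had a lowest, median and highest value of -2.17, -1.87 and -1.37 at 18 h and of -3.13, -2.54 and -2.37 at 24 h, and fell by 0.78 (limma adjusted p = 0.0256). Nrf2 failed the test in 9 of the 25 other settings and catalase in 8. Without 18 h larvae 5 and 6, 1 gene of the list rose and none fell.

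Of 17 genes of the G2 and M phases, 10 were lower at 24 h and none was higher, with a median log2 difference of -0.93. Cdc20, the activator of the anaphase-promoting complex, was the one whose groups stood apart: it ran from 0.44 to 1.49 in the 18 h larvae (median 1.26) and from -0.62 to 0.36 in the 24 h larvae (median -0.11), a 2.28-fold fall (log2 difference -1.19 ± 0.20 SE, limma adjusted p = 8.32e-05). The 3 B-type cyclins, partners of cdk1 at entry into mitosis, all fell. Cyclin B1 lay between -1.61 and -0.10 at 18 h, with a median of -0.59, and between -2.46 and -1.27 at 24 h, with a median of -1.93, a fall of 2.24-fold (log2 difference -1.16 ± 0.28 SE, limma adjusted p = 0.00773). Cyclin B2 fell by 1.37 (adjusted p = 0.00274 in limma) and cyclin B3 by 1.14 (adjusted p = 0.0128 in limma), each with overlap.

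Several mitotic kinases and their helpers fell as well. Aurora kinase A (aurka-a), which matures the spindle poles, fell by 1.08 log2 units (limma adjusted p = 8.49e-04), the polo kinase plk1 by 1.25 (limma adjusted p = 0.00575), and their activator bora was lower too (limma adjusted p = 0.030). At 24 h plk1 was well above background in 3 of 6 larvae and bora in 4, so their low end was poorly measured. Prc1, a bundler of the spindle midzone, fell by 0.93, ube2c, the conjugating enzyme of the anaphase-promoting complex, by 0.77, and cks1, a subunit of cyclin-dependent kinases, by 0.75 (adjusted p from 0.00325 to 0.0423 in limma). Of the 7 that did not pass, the kinase cdk1-b (-0.87, limma adjusted p = 0.109) and the spindle motor kif11-b (-0.97, limma adjusted p = 0.103) had values near those of the others, whereas wee1, which holds cdk1 in check, was at -0.01 and the centriole kinase plk4 at 0.06. The 10 falls became 6 without 24 h larva 6, 5 without 18 h larvae 5 and 6 and 6 after median centring. Bora failed the test in 13 of 25 other settings, cks1 in 12 and ube2c in 10. By comparison, plk1 failed in 4, prc1 in 2 and aurka-a in 1. The list median was -0.86 after median centring, -0.66 under normexp and -0.42 under normexp without the compressed arrays, where the medians of all probes were -0.03, -0.43 and -0.06.

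The regulators of G1 and S gave 2 falls and no rise among 13, and their median was 0.00. Without 18 h larvae 5 and 6 there was 1 fall. Cdkn1, the inhibitor that holds cells before S phase, was one of them, and its signal had a lowest, median and highest value of 3.05, 3.35 and 4.07 at 18 h and of 0.90, 2.03 and 2.61 at 24 h. It fell by 2.85-fold (log2 difference -1.51 ± 0.24 SE, limma adjusted p = 3.88e-05). Cdc25 (M-phase inducer phosphatase 1), which activates cyclin-dependent kinases, lay between -2.46 and -1.33 at 18 h, with a median of -1.90, and between -2.86 and -2.46 at 24 h, with a median of -2.62, with the groups all but touching, a fall of 0.73 (limma adjusted p = 0.0131). The D and E cyclins, cdk2 and cdk4 ranged from -0.13 (cyclin E1) to 0.32 (cyclin D1) and did not pass. In the DNA replication and repair list, 22 of 23 genes had a difference above 0, with a median of 0.32 against -0.10 over all probes, but only 2 passed. These were the origin recognition subunit orc5 (log2 difference 0.72 ± 0.22 SE, limma adjusted p = 0.0488) and the checkpoint kinase chek1 (log2 difference 0.75 ± 0.23 SE, limma adjusted p = 0.0431), and no gene of the list passed without 18 h larva 2, 4, 5 or 6 or without 24 h larva 1, 2 or 6, nor without 18 h larvae 5 and 6 together. Pcna, the sliding clamp of DNA polymerases, was at 0.47 (limma adjusted p = 0.237) and the polymerase pold1 at 0.50 (limma adjusted p = 0.169).

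The genes of protein breakdown had small differences in one direction. All 22 genes of the proteasome and ubiquitin list had differences below the median of all probes, 14 passed and none rose, with a list median of -0.50. The larvae of both times did not overlap for 9 of them, against 1.03% of all probes in the direction of a fall. Psmc2, an ATPase of the 19S cap that unfolds substrates, lay between 4.08 and 4.37 at 18 h, with a median of 4.15, and between 3.19 and 3.82 at 24 h, with a median of 3.67, a fall of 1.51-fold (log2 difference -0.59 ± 0.12 SE, limma adjusted p = 8.74e-04). Psmd8, a lid subunit, had a lowest, median and highest value of -0.07, 0.24 and 0.33 at 18 h and of -0.66, -0.34 and -0.14 at 24 h, and fell by 0.57 log2 units (limma adjusted p = 5.74e-04). Polyubiquitin-C (ubc), a main source of ubiquitin, fell by 0.64 with no overlap (limma adjusted p = 7.04e-04).

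Subunits of the base, the lid and the core ring were among those that fell. The cap subunit psmd1 fell most, by 0.78 (limma adjusted p = 0.0022), and the deubiquitinases usp3 and usp14 were at -0.67 and -0.61. The ATPases psmc1 and psmc5 and the core ring subunits psma1 and psma5 were at -0.55, -0.55, -0.55 and -0.52. Psmd3, psmd7, psmb7 and psmd4 fell by 0.43, 0.42, 0.38 and 0.33 log2 units. The 8 that did not pass ranged from -0.64 (usp28) to -0.14 (ubr1), and vcp, which extracts ubiquitinated proteins, was at -0.47. Such small differences were sensitive to scaling: 14 passed after quantile normalization but 3 after median centring, where the list median was -0.43. Without 24 h larva 3, 8 passed, and without 18 h larvae 5 and 6, 6 did. The normexp correction turned psmd3, psmd4 and psmb7 to 0.03, 0.14 and 0.12, none past the test. Under it the list median was -0.10, which lay above the -0.43 of all probes, so the lower level relative to all probes was lost. In the other settings the list median ran from -0.52 to -0.42.

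Of 13 chaperones, 12 had a difference below 0. By the test 7 fell and 1 rose, and the median was -0.57. The falling members included 4 proteins of the endoplasmic reticulum lumen. Calreticulin, which folds glycoproteins, ran from 1.88 to 2.59 in the 18 h larvae (median 2.07) and from 1.31 to 1.60 in the 24 h larvae (median 1.48) (log2 difference -0.69 ± 0.14 SE, limma adjusted p = 8.49e-04), and grp94, its hsp90-type partner, lay between 2.88 and 3.25 at 18 h, with a median of 3.04, and between 2.05 and 2.82 at 24 h, with a median of 2.27 (log2 difference -0.69 ± 0.18 SE, limma adjusted p = 0.0147). Neither overlapped. Dnajb11, a co-chaperone of the same compartment, fell by 0.66 and dnajc10, a reductase there, by 0.65 (limma adjusted p = 0.00277 and 0.032). Among the other falls, hsp90a1 was lower by 0.92 and the DnaJ co-chaperone dnaja1 by 0.52 (limma adjusted p = 0.0182 and 0.0355), and dnajc17 fell by 0.41 (limma adjusted p = 0.00944). Hsp70 had a difference of -0.96 with a standard error of 0.46, and grp78 one of -0.55 (limma adjusted p = 0.297 and 0.149). The 7 falls became 4 without 24 h larva 5 or 6, 4 without 18 h larvae 5 and 6, and 2 after median centring. Under normexp the chaperone median was -0.40, close to the -0.43 of all probes, and in the other settings it ran from -0.67 to -0.33. For the G2 and M phase, proteasome and chaperone lists in this order, the number that fell was 5, 2 and 3 under normexp, 2, 2 and 0 under normexp without the compressed arrays, and 2, 1 and 1 when only the 12 larvae of both times were fitted.

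The rising chaperone was alpha-crystallin B (cryab), a small heat shock protein of the lens and of muscle. It lay between -0.50 and 0.73 at 18 h, with a median of 0.43, and between 2.24 and 2.65 at 24 h, with a median of 2.35, a rise of 4.15-fold (log2 difference 2.05 ± 0.21 SE, limma adjusted p = 9.89e-10). Its mean at 12 h had been -2.37 ± 0.34 (SD, n = 5), and it had also risen from 12 h to 18 h (limma adjusted p = 1.39e-12).

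**Figure D4:**
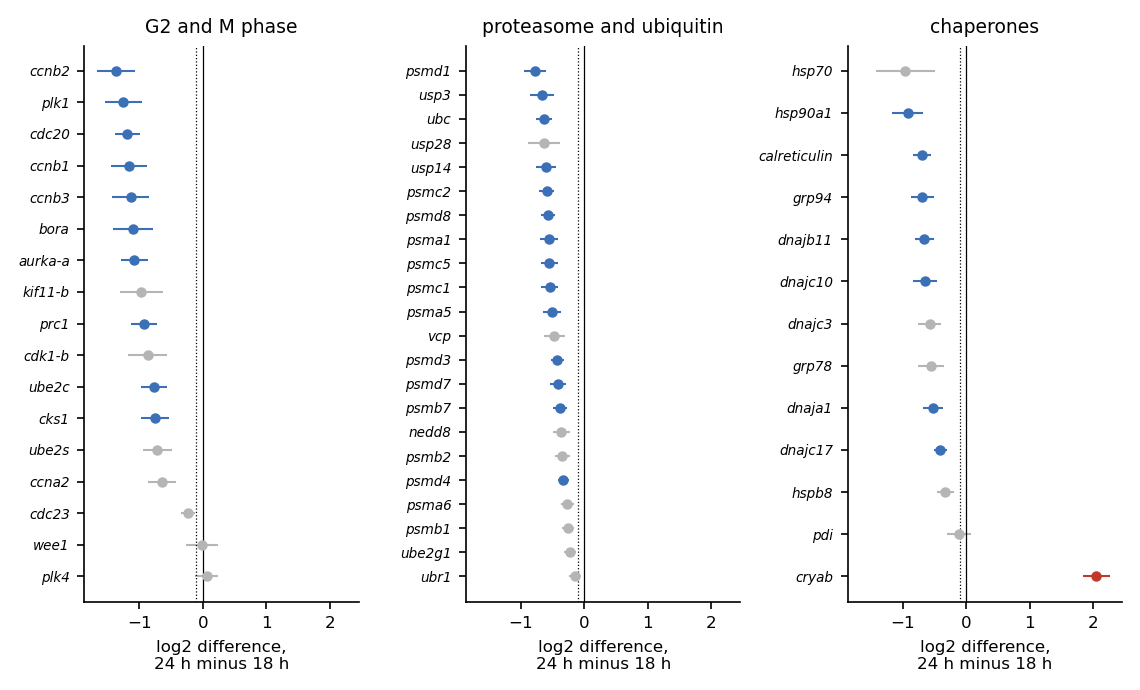
Log2 difference between 24 h and 18 h with its standard error for each member of the G2 and M phase, proteasome and ubiquitin, and chaperone lists, 6 larvae per time, blue for falls and red for rises past the limma threshold and grey for the rest. The dotted line is the median of all probes at -0.10, and 15 of 17, 22 of 22 and 12 of 13 members lie to its left.

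Other lists held few or no calls. In ribosome biogenesis all 14 genes had a difference above 0 (median 0.37), and bop1, which matures the large subunit rRNA, passed without overlap (log2 difference 0.51 ± 0.12 SE, limma adjusted p = 0.00429), whereas nucleophosmin npm1 at 0.38 and sdad1 at 0.64 did not. With slide as a term 8 passed, with quantile normalization 5 and with only the 12 larvae of both times none. None of 17 neuromuscular and growth factor genes passed (median -0.13): the muscle acetylcholine receptor subunit chrna was at -0.08, the receptor kinase musk at -0.19 and neuregulin nrg1 at -0.02. None of 7 apoptosis genes passed either, with the adaptor tradd at -0.51 (limma adjusted p = 0.0772). As labels of tissue, chrna, musk, asbt, pfkl and tat were above background in all 12 larvae and so was the inner ear gene beta-tectorin (difference 0.49).

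Of the 96 named clones in no list, 22 rose and 8 fell. The largest falls were in a pair of salt carriers, the sodium, potassium and chloride cotransporters of salt-moving epithelia, solute carrier family 12 members 1 and 2. Member 1 ran from 0.72 to 2.00 in the 18 h larvae (median 1.67) and from -0.11 to 0.48 in the 24 h larvae (median 0.21) (log2 difference -1.30 ± 0.27 SE, limma adjusted p = 0.00157), and member 2 lay between -2.47 and -1.06 at 18 h, with a median of -1.66, and between -3.53 and -2.69 at 24 h, with a median of -3.05 (log2 difference -1.29 ± 0.29 SE, limma adjusted p = 0.00412). Neither showed overlap. TMEM214-A, a transmembrane protein of the endoplasmic reticulum fell by 0.63 log2 units without overlap (limma adjusted p = 2.34e-04), and the mitochondrial coenzyme Q-binding protein COQ10 homolog B by 1.05 (limma adjusted p = 8.60e-05).

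The rises there included protein-glutamine gamma-glutamyltransferase 2, a cross-linking enzyme, which lay between -4.57 and -3.33 at 18 h, with a median of -3.99, and between -2.80 and -2.06 at 24 h, with a median of -2.32 (log2 difference 1.52 ± 0.27 SE, limma adjusted p = 1.69e-04). The calcium-dependent protease calpain-8-like rose by 1.28 and the mitochondrial MOSC domain-containing protein 2 by 1.24 (limma adjusted p = 9.64e-04 and 2.04e-06), both without overlap. ATP-dependent zinc metalloprotease YME1L1, which clears proteins from the inner mitochondrial membrane, rose by 1.02 with an SE of 0.12 (limma adjusted p = 6.12e-08), and mitogen-activated protein kinase kinase kinase 6 by 0.89 (limma adjusted p = 2.74e-07). Proto-oncogene c-Fos-like, a marker of recent cell activation, rose by 1.12 and a type II keratin of the cytoskeleton by 1.42, in both cases with overlap (limma adjusted p = 2.74e-04 and 8.65e-04). Tob1, an antiproliferative protein, rose by 0.71 (limma adjusted p = 0.025). The kinase SBK2 rose by 1.49, lysyl oxidase homolog 2, which cross-links collagen, by 0.92 and the lysosomal channel mucolipin-2 by 0.95 log2 units (limma adjusted p from 7.31e-06 to 5.25e-04).

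Of the 579 probes, 487 carry no name here. Among those whose larvae did not overlap, clone C2_7164 rose most, from -1.58 to 0.53 at 18 h and from 2.99 to 4.06 at 24 h (log2 difference 4.44 ± 0.50 SE, limma adjusted p = 1.16e-08). Clone C3_lrc63466 followed with a difference of 3.94 (limma adjusted p = 0.000739), but its 18 h larvae spread from -6.81 to 3.19, and without 18 h larva 6 the difference was 2.36 (adjusted p = 5.63e-08). Clone C2_46081 fell (limma adjusted p = 3.83e-14). It lay between -0.40 and 0.25 at 18 h, well above background in all 6 larvae, and was above background in only 1 of 6 larvae at 24 h, so the size of the fall was not measured. Clone C2_2809, above background in all 12 larvae, fell by 2.01 log2 units (limma adjusted p = 4.94e-06).

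The larvae taken at 21 h, whose means did not enter the difference between 18 h and 24 h although they shared in the estimate of the spread, split the 6 h into 2 steps of 3 h. Their mean lay between those of 18 h and 24 h for 236 of the 252 rises and 314 of the 327 falls. A median of 57.8% of the rise and 59.2% of the fall was reached by 21 h (quartiles 36.1% to 74.7% and 45.0% to 71.8%). These probes were chosen for a gap between 18 h and 24 h, which by itself favours another mean in between. The share over all probes was not computed, so these values are no separate test of a steady course. The steps share the 21 h larvae, and each was tested on its own. From 18 h to 21 h, 86 probes passed (0.617%). Of these, 62 rose (0.445%) and 24 fell (0.172%). From 21 h to 24 h, 39 passed (0.28%), of which 26 rose (0.187%) and 13 fell (0.0933%). The count for 18 h to 21 h was 51 without 18 h larva 6. The test of a difference between the steps passed for 11 probes (0.0789%), of which cdkn1 was the single one with a name.

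Among the named genes that changed, 16 passed from 18 h to 21 h and 8 from 21 h to 24 h, against 0.617% and 0.28% of all probes. These genes were chosen for a gap between 18 h and 24 h. Each step reuses the larvae of 1 of those times, which favours a pass. Cry1 stood at -0.59 ± 0.25 at 18 h (mean ± SD, n = 6), -0.30 ± 0.26 at 21 h and 1.02 ± 0.26 at 24 h, so that 18.0% of its rise had been reached at 21 h. For cat1 the share was 28%. Both genes, with tat, per1, cry2, ucp2, YME1L1 and SBK2, passed between 21 h and 24 h (limma adjusted p from 2.53e-05 for cry1 to 0.0266 for per1). By comparison, per3, mgst2, tdh and cryab passed between 18 h and 21 h and not after it, with 75.4%, 65.6%, 68.4% and 69.3% of the rise reached. Ucp2 passed in both steps (1.61 ± 1.06, 3.57 ± 0.63 and 5.37 ± 0.40). For all of these genes the difference between the steps did not pass, so an unequal pace was not shown. Cdkn1 dropped from 3.45 ± 0.38 to 1.33 ± 0.35 by 21 h and stood at 1.94 ± 0.58 at 24 h (difference of the steps 2.73 log2 units, limma adjusted p = 2.08e-04).

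**Figure D5:**
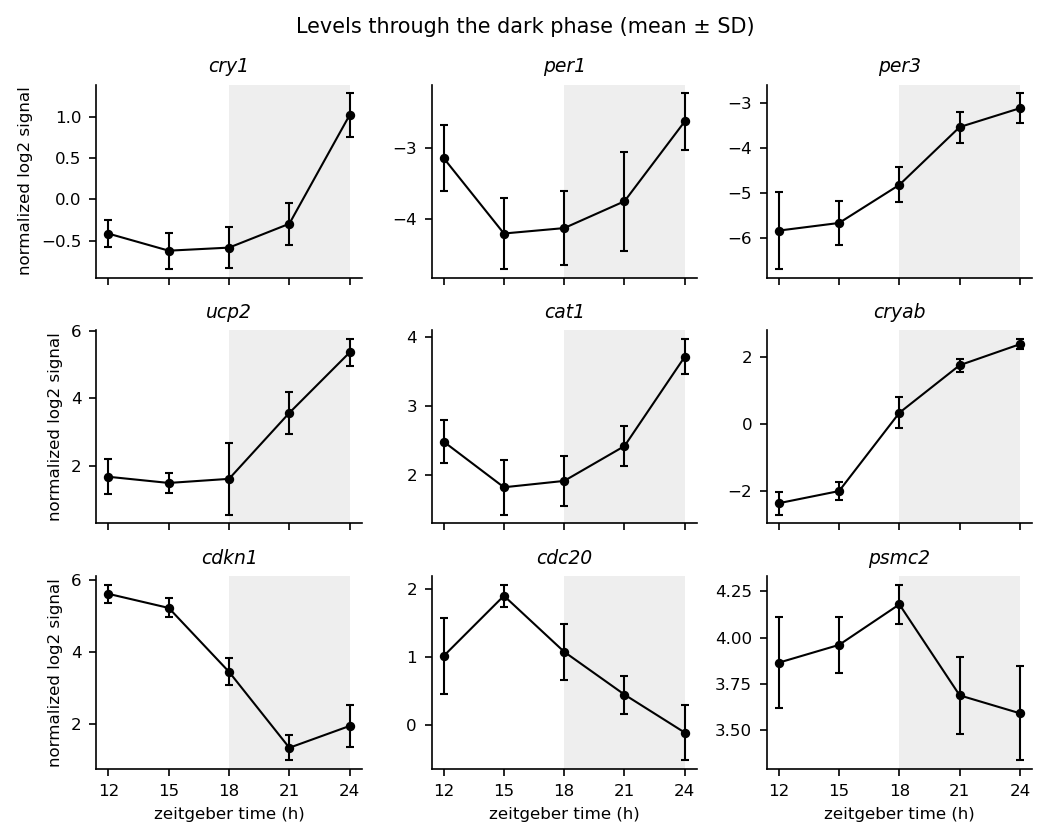
Mean normalized log2 signal ± SD of 9 genes at zeitgeber times 12, 15, 18, 21 and 24 h, 6 larvae per time and 5 at 12 h, with the last 6 h of darkness shaded. Cry1 went from -0.30 at 21 h to 1.02 at 24 h, ucp2 from 1.61 at 18 h to 5.37 at 24 h, and cdkn1 went from 5.62 at 12 h to 1.33 at 21 h.

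The earlier part of the night, from 12 h to 18 h, shares the 18 h larvae with the later part. From 12 h to 18 h, 152 probes rose (1.09%) and 95 fell (0.681%). The change differed between the 6 h before 18 h and the 6 h after it for 223 probes (1.6%), 114 more positive (0.818%) and 109 more negative (0.782%) after 18 h, and for 145 without 18 h larva 5. Of these 223 probes, 156 were among those that changed between 18 h and 24 h, as 4.15% of all probes were. Among the 92 named genes that changed after 18 h, 26 passed this test. These genes, like the 156 probes, were chosen for their change from 18 h to 24 h. The same change in the same larvae is part of this test and favours a pass. The count of 156, the count of named genes and the p-values that follow are therefore no separate evidence that the intervals differ. Mgst2 changed by -2.12 log2 units from 12 h to 18 h and by 2.29 from 18 h to 24 h (difference 4.41, limma adjusted p = 4.01e-07). Per1 moved by -0.99 and then 1.51 (limma adjusted p of the difference = 3.82e-04), and ROR-gamma by -0.74 and then 1.60 (limma adjusted p of the difference = 7.84e-05). Cry1, ucp2 and tat had differences from 12 h to 18 h of -0.17, -0.06 and -0.08, and their intervals differed too (limma adjusted p of the difference from 1.54e-05 to 0.00397). Tdh and cryab rose in both intervals, cryab by 2.71 log2 units before 18 h, and the difference between the intervals did not pass. In the proteasome list psmc2, psmd8 and psma1 passed, at 0.32, 0.32 and 0.40 before 18 h.

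The levels reached at 24 h could be held against those of the 0 h larvae, taken at the same clock hour 1 day before. No probe differed between 0 h and 24 h in limma, and 449 had an unadjusted p under 0.05 (3.22% of all, and 28 or 4.84% of the 579). The study, by its own analysis of variance, reports a few genes that differed between these times. A comparison that shares no larva with 18 h against 24 h is that of 21 h with 0 h. For the 252 rises, the 0 h mean was above the 21 h mean in 230 (91.3%), where 33.1% of all probes were. For the 327 falls it was below in 268 (82.0%), where 66.9% of all probes were. Of the 92 named genes that changed, 82 had the direction of their change in these other larvae, and cry1 stood at 1.11 ± 0.35 and ucp2 at 5.09 ± 0.37 at 0 h (mean ± SD, n = 6). The study chose most named genes for a daily course that included the 0 h and 21 h larvae. The count of 82 is therefore no independent evidence.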

How the data were processed

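Total RNA from single whole larvae was labelled with Cy3 and hybridised to 1-colour Agilent arrays. The deposited files hold spot intensity per the file headers, and the authors obtained them with Agilent Feature Extraction (version 11.5.1.1 in the submitters' processing notes), which subtracts background. A second deposited table holds the authors' normalized log2 values and served as an alternative. From the processed intensity, control spots (536 of 15744) and 974 outlier spots were left out, log2 was taken, the 75th percentile of each array was subtracted and spots of 1 probe were averaged, which left 13940 probes. No spot was saturated. Each level is therefore relative to its array, and a shift of all RNA would not be seen.

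All 53 arrays were fitted in 9 time groups with limma (lmFit and eBayes, version 3.58.1, R 4.3.3), so that the groups shared 1 estimate of the spread with 44 residual degrees of freedom. P-values were adjusted by Benjamini-Hochberg over all probes, and the threshold was 0.05. Single values of the arrays were compared by exact permutation tests. The labels call the larvae separate individuals. The study's methods state that more than 1 larva per tank was taken at each time, but nothing ties single larvae to tanks. The p-values therefore measure the spread between larvae and treat larvae of the same tank as separate.

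Names came from clone codes that the study pairs with descriptions. The members of the gene lists, and the lists themselves, were chosen with earlier results of these data known. The genes named were the list members that changed, with 1 or more members per list that did not. All members of the core clock and uncoupling lists were named too. Added to these were the 15 largest rises and 15 largest falls among named clones that met set criteria. Their larvae did not overlap, and their brighter group was well above background in all 6 larvae. At most 2 unnamed codes per direction were added by the same criteria. SBK2, lysyl oxidase homolog 2, mucolipin-2, YME1L1, mitogen-activated protein kinase kinase kinase 6, c-Fos-like, keratin, Tob1 and COQ10 homolog B were chosen after their values were seen.

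Alternatives were other background corrections, normalizations, probe filters, blocks, thresholds and subsets of larvae, the deposited table, and the methods' analysis of variance with Tukey's comparison. The files used here hold a median and no mean signal, so the normexp correction (offset 50) was run on the median. Further alternatives were added after the data were seen, leaving out 18 h larvae 5 and 6 together and leaving out the arrays that normexp compressed. Figures were drawn with matplotlib 3.10.9.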

Additional observations from a re-analysis of the deposited data

Results flagged for a closer look

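The 99 genes examined were the 92 named ones that changed and the remaining members of the core clock, uncoupling and accessory clock lists. In the 6 larvae of each time, a lowest or highest larva standing apart was sought by Dixon's criterion. Of 198 groups, 14 (7.07%) held one. Chance gives about 1 in 20 groups. The photoreceptor genes held 4 of them: the cone PDE gamma subunit was at -4.91 in 18 h larva 6 and at 3.22 in 24 h larva 5, and the rod-like PDE gamma subunit was at -1.59 and 3.45 in the same larvae. Ucp1 was highest in 18 h larva 5 at 3.19, cyclin B3 was apart in 18 h larva 4 at -0.54, and psmd8 in 18 h larva 3 at -0.0706. At 24 h, psmc5 stood at 1.84 in larva 6, ubc at 4.57 in larva 4 and dnajc17 at -0.75 in larva 1. In the metabolic list the larvae apart were 24 h larva 2 for pfkfb2 at -1.56, 18 h larva 1 for cyp2b4 at 1.26, 24 h larva 6 for scamc2-a at -2.45 and 24 h larva 3 for eif4ebp3-like at 5.86. All are normalized log2 signals.

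The change from 18 h to 24 h differed from that between 12 h and 18 h for 223 probes. The step from 21 h to 24 h differed from the step from 18 h to 21 h for 11 probes, among them cdkn1, with a difference of 2.73 log2 units.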

How the results depend on the processing

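Of 2473 values for 99 genes under the alternatives, 2073 stayed on their side of the threshold, 371 no longer passed, 19 newly passed and 10 of genes that had passed changed sign. A further 4 values changed sign in genes that had not passed, under normexp: per2 at -0.67 (-0.0302 without the compressed arrays), nocturnin at -0.31 and cry-dash at -0.23. The 10 also came with normexp: per1 at -0.21, per3 at -0.26, cry2 at -0.10, psmd3 at 0.0298, psmd4 at 0.14, psmb7 at 0.12, isyna1-a at -0.42, scamc2-a at -0.27, protein-glutamine gamma-glutamyltransferase 2 at -0.0844 and mucolipin-2 at -0.30. On 3 arrays, 18 h larvae 1 and 6 among them, normexp left a range of 0.14 to 0.45 log2 units between the 5th and 75th percentiles, against 1.72 to 3.11 elsewhere. It gave 383 probes changed and 183 lower, 30 for 18 h to 21 h, 19 for 21 h to 24 h and 5 whose steps differed. Without those arrays these were 201 changed (125 higher, 76 lower), 19 for 18 h to 21 h, 7 whose steps differed and 67 whose intervals before and after 18 h differed. Median centring gave 160 lower and 53 for 18 h to 21 h.

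Same-numbered larvae of 18 h and 24 h had deviations correlated between 0.0831 and 0.426, and 2 of the 6 pairs lay under 0.1. The 18 h larvae 1, 4, 5 and 6 correlated best with the 24 h larva of their own number. Because larvae 2 and 3 did not, the numbers were not taken as pairs. The larvae numbered 3, 4, 5 and 6 also share a slide across the times. With the replicate block, 1123 probes changed (434 higher, 689 lower), 206 for 18 h to 21 h, 64 for 21 h to 24 h and 462 between the intervals. Slide as a term gave 1334, 527, 807, 275, 103 and 572 for the same counts. Scan batch gave 907 changed, 531 lower, 157 for 18 h to 21 h and 363 between the intervals.

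The 12 larvae alone gave 189 (110 higher, 79 lower), an adjusted p under 0.01 gave 295 (157 and 138), and at least 1 log2 unit gave 199 (116 and 83). Without 18 h larvae 5 and 6, 203 were lower, 38 passed for 18 h to 21 h and 128 between the intervals. The methods' analysis of variance gave 562 (256 and 306). Leaving out 1 larva at a time gave 413 to 631 changed, 192 to 260 higher and 208 to 371 lower, 51 to 99 for 18 h to 21 h, 31 to 48 for 21 h to 24 h, 10 to 11 whose steps differed, 145 (without 18 h larva 5) to 238 between the intervals, and 0 to 0 against 0 h. The difference in 75th percentile ran from -59.2 to -5.12 and that in the share well above background from -5.60 to -2.60 percentage points. The cause of these changes was not tested.

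The number of arrays limits the precision. Genes near background, among them per1, per2, per3, bmal1, clock, plk1, bora and scamc2-a, are measured least well. Of the 579 probes, 10 had 1 time at background in all 6 larvae.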
